A study of Mus musculus with 4 samples.

Results

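Monocyte and dendritic cell nuclei of mouse liver were described here as 106 nuclei out of 25611 kept nuclei in 4 libraries of single-nucleus RNA sequencing, which reads the RNA of separate nuclei, each caught in a droplet. A nucleus was a member when it held at least 3 unique molecular identifiers (UMIs, each standing for 1 captured transcript) summed over Ccr2, Cx3cr1, Itgax, Flt3, Cd209a, Clec9a, Wdfy4 and Ly6c2. It also had to hold 0 UMIs of Cd5l, Clec4f, Timd4, Stab2, Reln, Skap1, Themis, Pax5 and Blk, which mark Kupffer, endothelial, stellate, T and B cells. The 8 genes of the first sum are called the gate below. A nucleus was kept with 500 or more genes detected and no more than 5% of its UMIs from mitochondrial genes. All tissue was non-tumor liver from males given diethylnitrosamine (DEN), a liver carcinogen, at 14 days of age (25 mg/kg). The livers were taken at 12 months. There were 2 libraries labelled Brca1-KO and 2 libraries labelled Brca1-WT, and all 4 came from DEN-treated mice. The sources used here do not say which part of Brca1 was deleted or which promoter drove any Cre. The replicates are called biological in the labels, without details of the animals, and the p-values below measure only the spread between these samples.

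Monocytes are blood phagocytes that enter tissue and can become macrophages or dendritic cells, and the classical kind carries the chemokine receptor CCR2 while the patrolling kind carries the fractalkine receptor CX3CR1. Dendritic cells take up antigen and show its peptides on major histocompatibility complex (MHC) class II to CD4 T cells. Conventional type 1 cells (cDC1) also show peptides of engulfed cells to CD8 T cells, type 2 cells (cDC2) mainly serve CD4 T cells, and plasmacytoid cells are known for releasing type I interferon. Kupffer cells, the resident macrophages of the liver sinusoids, are the commonest myeloid neighbours and were used for the comparison. A Kupffer nucleus held at least 2 UMIs of Cd5l, Clec4f and Timd4, which gave 1911 nuclei.

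The libraries held between 36662067 and 45638888 UMIs. The members numbered 23 and 28 in the Brca1-KO libraries and 27 and 28 in the Brca1-WT libraries. They held 371718 UMIs in all, with a median of 2213.5 per nucleus and a range of 714 to 25193. Of all barcodes, 90 occurred in 2 libraries, and 1 member barcode was also present in another library, where it was not a member. Hepatocyte transcripts set some members apart. In 13 members the 16 genes of a hepatocyte list made up at least 1.5% of UMIs, and these hepatocyte-rich nuclei had a median of 11266 UMIs. They numbered 2 and 6 in the Brca1-KO libraries and 1 and 4 in the Brca1-WT libraries. They held 31.1% and 62.0% of all member UMIs in the Brca1-KO libraries, against 11.7% and 46.0% in the Brca1-WT libraries. The doublet caller Scrublet marked 6 members as likely pairs of nuclei, and all 6 were hepatocyte-rich. Values without the hepatocyte-rich members are therefore given below beside the results they touch. Kupffer nuclei at or above the same 1.5% held 40.7% and 29.2% of Kupffer UMIs in the Brca1-KO libraries. In the Brca1-WT libraries they held 59.1% and 42.5%. Scrublet marked 12.5% and 7.74% of Kupffer nuclei in the Brca1-KO libraries and 26.2% and 16.2% in the Brca1-WT libraries.

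**Figure D1:**
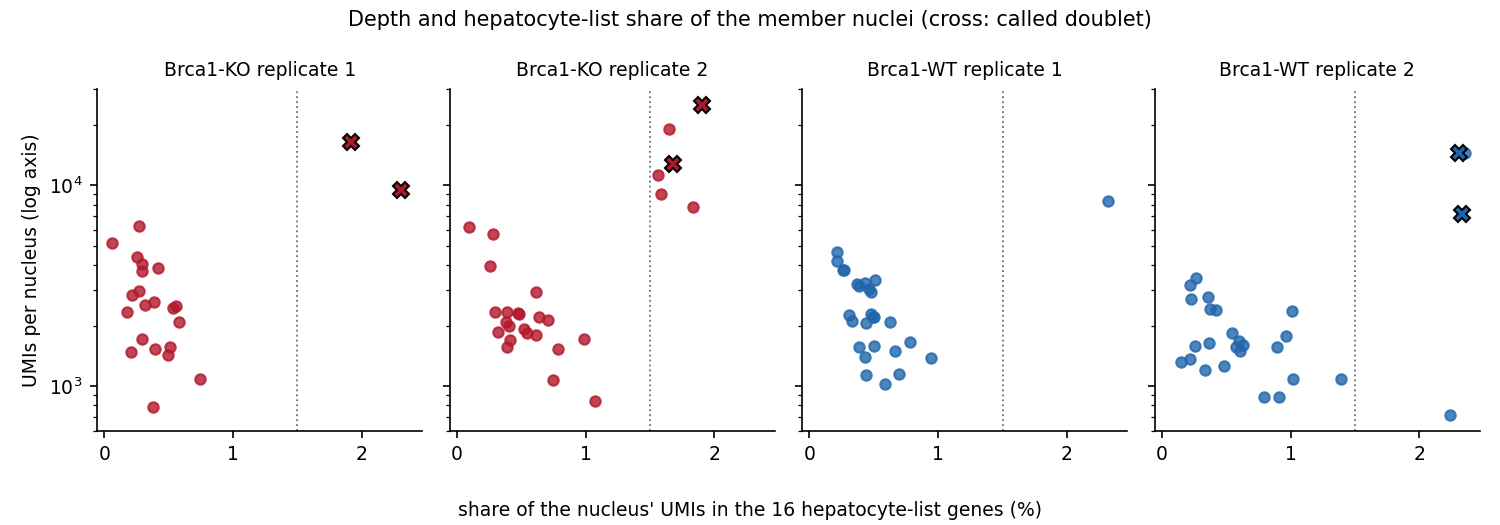
UMIs per nucleus (log axis) against the share of UMIs in the 16 hepatocyte-list genes (%), with 1 point per member nucleus and 1 panel per library, and a cross for each called doublet. The 13 nuclei right of the dotted line at 1.5% reach up to 25193 UMIs, and Brca1-KO replicate 2 holds 6 of them.

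Brca1, the targeted gene and a component of DNA repair by homologous recombination, could not check the labels in these nuclei. Members held 1 and 1 Brca1 UMIs in the Brca1-KO libraries and 1 and 0 in the Brca1-WT libraries. Kupffer nuclei held 10 and 7 Brca1 UMIs in the Brca1-KO libraries (10.4 and 5.69 CPM, the gene's UMIs scaled to a common total over the nuclei summed), against 36 and 7 in the Brca1-WT libraries (9.78 and 5.04 CPM). The 2 genotypes overlapped in Kupffer nuclei, and a difference was not detectable at this depth in members. Directions between genotypes below therefore rest on the labels.

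Among the gate genes, whose values chose the members and are a description, Wdfy4 made up most of what was counted. Wdfy4, which cDC1 need to present antigen of engulfed cells, had a UMI in 94 of 106 members and gave 653 UMIs, 67.3% of the gate's sum. It was also seen in 40.5% of Kupffer nuclei, with a range of 36.4% to 44.1% over libraries, against 78.3% to 92.9% of members. Flt3, the receptor for the growth factor of dendritic cells, was seen in 47.2% of members and 0.471% of Kupffer nuclei. Itgax, which encodes the integrin CD11c, was seen in 34.0% of members and 0.785% of Kupffer nuclei. Ccr2 was seen in 32.1% of members and 1.05% of Kupffer nuclei, and Cx3cr1 in 18.9% of members and 2.30% of Kupffer nuclei. Clec9a, a cDC1 receptor for dying cells, was seen in 22.6% of members and 13.3% of Kupffer nuclei. Cd209a, a lectin of cDC2 and some monocytes, was seen in 5.66% of members. Ly6c2, the defining surface marker of classical monocytes, had 0 UMIs in members and 15 UMIs in all kept nuclei. Median UMIs per nucleus by library were 2529, 2238, 2218 and 1619 in members and 1934, 1648, 2667 and 1747 in Kupffer nuclei, and members were the deeper set in both Brca1-KO libraries and the shallower one in both Brca1-WT libraries.

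**Figure D2:**
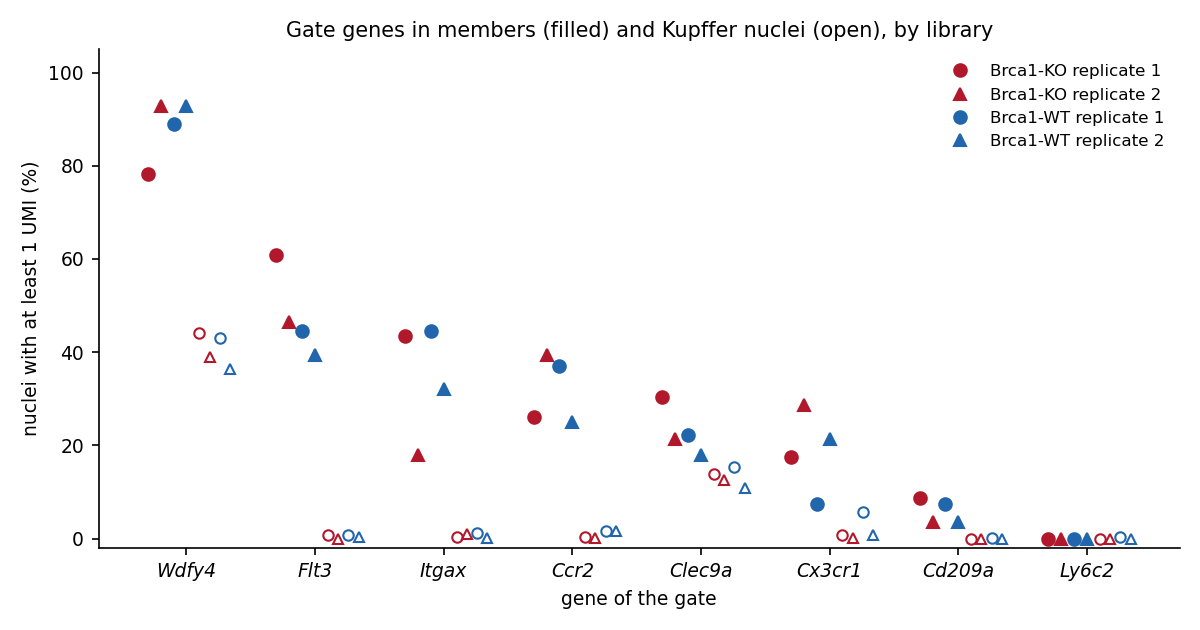
Share of nuclei with at least 1 UMI (%) of each gate gene, with 1 point per library, filled for members and open for Kupffer nuclei. Wdfy4 is seen in 78.3% to 92.9% of members and still in 36.4% to 44.1% of Kupffer nuclei, while Ly6c2 is at 0 in members.

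The label names monocytes and dendritic cells, and the members were sorted into sides by the gate genes themselves. On the UMIs of Ccr2, Cx3cr1 and Ly6c2 against those of Flt3, Clec9a, Cd209a and Wdfy4, 82 members leaned to the dendritic side, 20 to the monocyte side and 4 to neither. Since Wdfy4 gave most gate UMIs and Ly6c2 gave 0, this split restates the rule and is no evidence of cell type. The white-cell marker Ptprc had a UMI in 84 members. The list of MHC class II and costimulation genes reached 5 UMIs in 63 members, and the cDC1 list did so in 41. Of these 41 members, 8 were hepatocyte-rich and 14 also reached 5 UMIs of the Kupffer cell list. The cDC1 list includes Cadm1, which gave 302 UMIs in members, 107 of them in hepatocyte-rich nuclei. Cadm1 stood at 812 CPM over all members and 860 CPM over all Kupffer nuclei. The count of 41 alone therefore does not mark cDC1. The cDC2 list reached 5 UMIs in 19 members, of which 12 also reached 5 UMIs of the MHC class II list. All lists were counted without gate genes, which left 14 classical monocyte genes. This monocyte list reached 5 UMIs in 13 members, 9 of which were hepatocyte-rich and 9 of which came from Brca1-KO replicate 2. Much of that list was Fn1, the fibronectin gene, which hepatocytes also express, and 90 of its 111 UMIs lay in hepatocyte-rich nuclei. Outside the gate, evidence for classical monocytes was therefore thin. The set is called members below, after its rule.

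Other lists marked parts of the set. The Kupffer cell list, which includes genes beyond the excluded Cd5l, Clec4f and Timd4, reached 5 UMIs in 28 members, of which 18 were not hepatocyte-rich. These 28 numbered 4 and 8 in the Brca1-KO libraries and 6 and 10 in the Brca1-WT libraries, with 14 on the monocyte side and 13 on the dendritic side. The 18 that were not hepatocyte-rich numbered 3 and 2 in the Brca1-KO libraries and 5 and 8 in the Brca1-WT libraries. In 10 members the plasmacytoid list reached 15 UMIs, with a median of 39. These 10 numbered 4 and 2 in the Brca1-KO libraries and 3 and 1 in the Brca1-WT libraries. Siglech, a lectin used to tell mouse plasmacytoid cells, had a UMI in 6 of these 10, while 1 of the 10 reached 5 UMIs of the MHC class II list. The cDC1 list reached 5 UMIs in 7 of the 10. Xcr1, the chemokine receptor that defines cDC1, had a UMI in 5 members, at 1 and 1 in the Brca1-KO libraries and 2 and 1 in the Brca1-WT libraries. All 5 lay on the dendritic side, and their cDC1 list held 20 to 51 UMIs. In 8 members the B and plasma cell list reached 5 UMIs, although Pax5 and Blk were at 0 by the rule. All 8 lay on the dendritic side, held 2 to 4 Wdfy4 UMIs, and 6 of them had no other gate gene, so their place in the set rests on Wdfy4 alone. The endothelial list reached 10 UMIs in 2 members. A proliferation list reached 5 UMIs in 2 members, both from Brca1-KO replicate 2, with 30 and 10 UMIs. These thresholds on lists were chosen after the values were seen.

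**Figure D3:**
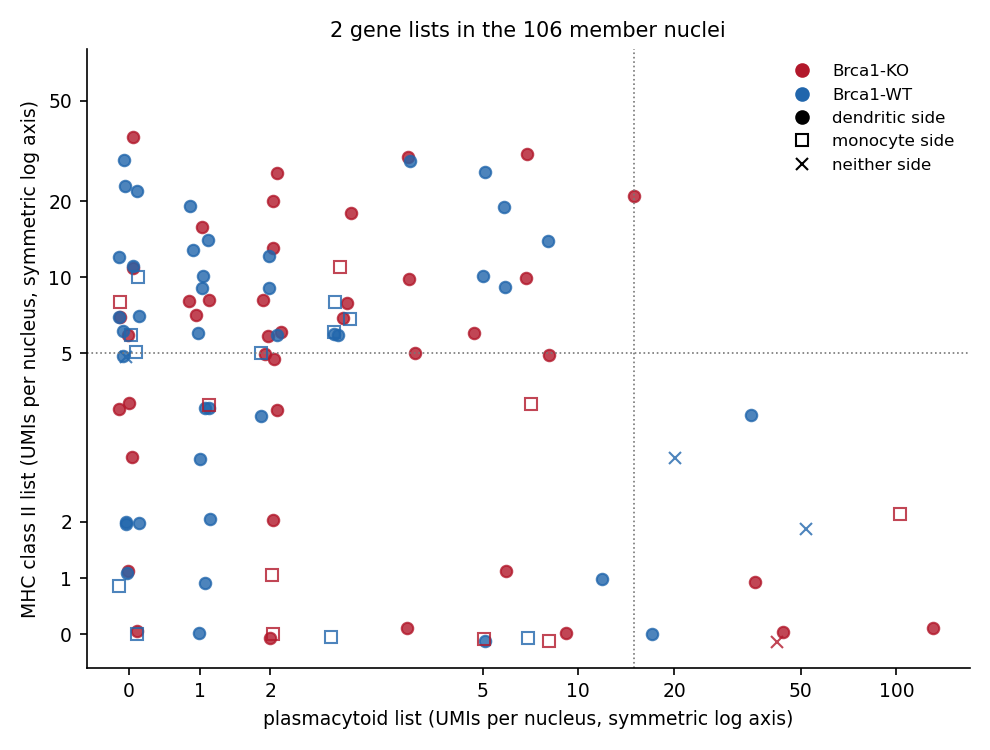
UMIs of the MHC class II list against UMIs of the plasmacytoid list (both on symmetric log axes), with 1 point per member nucleus, coloured by genotype and shaped by side, and jittered by a small amount. The 10 nuclei right of the dotted line at 15 plasmacytoid-list UMIs lie below 5 MHC class II UMIs, with 1 exception.

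Nuclei on either side of the gate's threshold differed in myeloid content. The 29 members with exactly 3 gate UMIs held 8.60 MHC class II list UMIs per 10000 UMIs and 39.2 pan-myeloid list UMIs per 10000. The 14 members with exactly 4 held 16.1 and 77.8 per 10000 for the same lists. The 89 nuclei with exactly 2 gate UMIs, which are no members, held 1.97 and 15.2 per 10000, and 51 of them were hepatocyte-rich, against 7 of the 29 and 1 of the 14. The pooled order did not hold in Brca1-WT replicate 2, where nuclei with 4 gate UMIs held 12.5 and 54.7 per 10000 and those with 3 held 14.2 and 64.2. These values carry no test.

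Members made up 0.456% (95% exact Clopper-Pearson interval 0.289 to 0.683) and 0.434% (0.289 to 0.627) of kept nuclei in the Brca1-KO libraries. They made up 0.410% (0.270 to 0.596) and 0.372% (0.248 to 0.538) in the Brca1-WT libraries. Both Brca1-KO libraries were above both Brca1-WT libraries, and all 4 intervals overlapped. The order was lost with called doublets removed, at 0.438% and 0.415% in the Brca1-KO libraries and 0.462% and 0.373% in the Brca1-WT libraries. It was also lost after thinning to 1000 UMIs, at 0.386% and 0.233% in the Brca1-KO libraries and 0.352% and 0.265% in the Brca1-WT libraries. The mean share was 0.445% ± 0.0154 in Brca1-KO livers and 0.391% ± 0.0265 in Brca1-WT livers (SD, n = 2 each), with a 2-sided exact permutation p of 0.333, the smallest that 2 against 2 libraries allow. Relative to Kupffer nuclei, the log2 ratio was -3.91 ± 0.319 in Brca1-KO livers and -4.34 ± 0.357 in Brca1-WT livers (SD, n = 2 each, exact permutation p = 0.667). The monocyte side made up 13.04% and 21.4% of members in the Brca1-KO libraries and 18.5% and 21.4% in the Brca1-WT libraries. On average the monocyte side held 17.2% ± 5.93 of Brca1-KO members and 19.97% ± 2.06 of Brca1-WT members (SD, n = 2 each, exact permutation p = 1). This difference changed sign, to 3.24 percentage points with a gate of 2 UMIs, for the monocyte-side share of members.

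UMIs were summed per library over members and over Kupffer nuclei and compared with edgeR's quasi-likelihood test with Benjamini-Hochberg adjustment, with the library as a block. Both sets were chosen by UMIs of lineage genes in these same nuclei. The test therefore says how steadily other genes differed over the 4 libraries and is no independent support for the names of the cells. Of 7500 genes tested outside the gates, 265 were higher in members (3.53%) and 222 were lower (2.96%), with an adjusted p under 0.05. The median change over all 7500 genes was -0.05 on the log2 scale. Without Brca1-KO replicate 1 the calls numbered 209, without Brca1-WT replicate 2 they numbered 298, and without the top quartile of nuclei by hepatocyte-list share they numbered 933. Hepatocyte-list UMIs per 10000 were 86.3, 124, 64.5 and 135 in members of the 4 libraries and 116, 103, 154 and 134 in Kupffer nuclei, and 0 of the 16 hepatocyte-list genes were called either way.

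By list median, antigen presentation by MHC class II stood highest in members among the lists. Of 12 tested genes of the MHC class II and costimulation list, 7 were higher in members and 0 were lower, with a list median of 2.92 on the log2 scale against -0.05 for all genes. Ciita, the master regulator that switches on MHC class II genes, stood at 565 and 386 CPM in members of the Brca1-KO libraries and 631 and 476 in members of the Brca1-WT libraries. Kupffer nuclei held 24.9 and 63.4 Ciita CPM in the Brca1-KO libraries and 25.5 and 25.2 in the Brca1-WT libraries. Members lay above Kupffer nuclei in each library, and the log2 fold change was 3.92 ± 0.36 (SE, adjusted p = 1.5e-05). Cd74, the invariant chain that guards the class II groove, stood at 445 and 277 CPM in members of the Brca1-KO libraries and 701 and 476 in members of the Brca1-WT libraries. In Kupffer nuclei Cd74 stood at 54.0 and 89.4 in the Brca1-KO libraries and 47.6 and 66.2 in the Brca1-WT libraries, again without overlap (log2 fold change 2.81 ± 0.34, adjusted p = 1.5e-04). Hepatocyte-rich nuclei with 0 UMIs of the gate and exclusion genes held 0.417 to 1.31 Cd74 CPM.

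The classical class II chains followed the same pattern. H2-Aa, the alpha chain of I-A, stood at 324 and 189 CPM in members of the Brca1-KO libraries and 407 and 326 in members of the Brca1-WT libraries. In Kupffer nuclei H2-Aa stood at 22.8 and 39.8 in the Brca1-KO libraries and 19.0 and 24.5 in the Brca1-WT libraries (log2 fold change 3.51 ± 0.37, adjusted p = 4.0e-05). H2-Eb1, the beta chain of I-E, stood at 228 and 160.2 CPM in members of the Brca1-KO libraries and 435 and 326 in members of the Brca1-WT libraries. For H2-Eb1 the Kupffer values were 12.5 and 25.2 in the Brca1-KO libraries and 14.4 and 13.7 in the Brca1-WT libraries (log2 fold change 4.05 ± 0.40, adjusted p = 2.4e-05). The lowest member library exceeded the highest Kupffer library for both genes. H2-Ab1, the partner chain of H2-Aa, was higher by 3.62 ± 0.37 and H2-DMb1, which helps load peptides, by 3.02 ± 0.48 on the log2 scale. Icosl, a ligand that costimulates T cells, was higher by 4.03 ± 0.57. H2-DMa, the partner of H2-DMb1, had 10 UMIs in members and did not pass (log2 fold change 0.61, adjusted p = 0.72). With hepatocyte-rich nuclei left out, Ciita stood at 802 and 881 CPM in members of the Brca1-KO libraries and 715 and 766 in those of the Brca1-WT libraries, so the libraries drew closer together. The count of 7 held in each alternative except the stricter Kupffer set (5 of 7 tested genes) and thinning to 1000 UMIs (6 of 8 tested genes). Nuclei of the stricter Kupffer set also held 0 UMIs of the gate genes and of Stab2, Reln, Skap1, Themis, Pax5 and Blk.

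**Figure D4:**
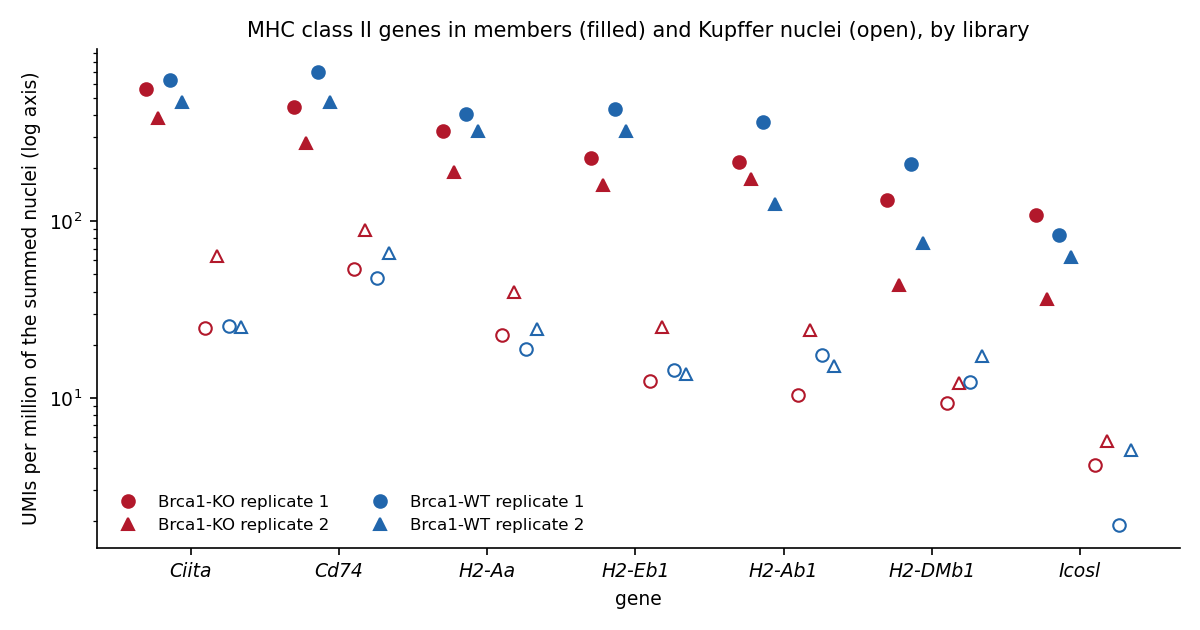
CPM over the summed nuclei (log axis) for the 7 called genes of the MHC class II list, with 1 point per library, filled for members and open for Kupffer nuclei. In each gene the 4 member libraries lie above the 4 Kupffer libraries, as for H2-Eb1 at 160.2 to 435 against 12.5 to 25.2.

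Promoters of these genes are shown because MHC class II promoters are known for a shared upstream module that ends in a Y box, an inverted CCAAT element. RefSeq promoter entries (GRCm38.p6, 250 bases before to 50 bases after the start) were found for 4 of the 7 called genes, and 3 of these held the letters TGATTGG. The letters were searched on both strands and are in capitals below, and they occur in 7.82% of all 32851 promoters of this length. The H2-Aa window is chr17:34287774-34288073 on the minus strand, the H2-Eb1 window chr17:34305617-34305916 on the plus strand, and the H2-DMb1 window chr17:34152941-34153240 on the plus strand.
H2-Aa: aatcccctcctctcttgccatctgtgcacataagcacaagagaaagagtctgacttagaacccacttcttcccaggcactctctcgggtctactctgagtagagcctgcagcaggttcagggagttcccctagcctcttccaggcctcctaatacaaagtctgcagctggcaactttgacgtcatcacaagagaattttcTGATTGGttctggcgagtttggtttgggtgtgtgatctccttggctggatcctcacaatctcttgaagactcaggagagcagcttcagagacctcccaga
H2-Eb1: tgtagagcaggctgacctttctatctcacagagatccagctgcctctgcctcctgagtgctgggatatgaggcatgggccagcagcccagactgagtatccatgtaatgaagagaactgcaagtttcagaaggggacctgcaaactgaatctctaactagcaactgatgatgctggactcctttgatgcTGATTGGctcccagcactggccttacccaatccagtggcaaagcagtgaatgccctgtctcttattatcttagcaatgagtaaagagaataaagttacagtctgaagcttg
H2-DMb1: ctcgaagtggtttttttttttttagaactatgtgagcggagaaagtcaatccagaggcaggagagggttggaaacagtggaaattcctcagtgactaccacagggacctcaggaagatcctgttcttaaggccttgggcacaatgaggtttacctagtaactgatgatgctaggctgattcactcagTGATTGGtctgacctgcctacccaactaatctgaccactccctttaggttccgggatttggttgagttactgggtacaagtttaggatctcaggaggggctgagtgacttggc
The capitals begin 50 bases before the start in H2-Aa, 61 in H2-Eb1 and 63 in H2-DMb1. No match was found in the Icosl window. A match is a description of letters, not evidence of a bound site or of a cause of the levels above.

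Transcription factors divided the sets in both directions, with 5 of 23 tested genes of the list higher and 6 lower (list median 0.16). Zbtb46, a factor typical of conventional dendritic cells, stood at 433 and 153 CPM in members of the Brca1-KO libraries and 435 and 313 in members of the Brca1-WT libraries. In Kupffer nuclei Zbtb46 stood at 38.4 and 22.8 in the Brca1-KO libraries and 99.7 and 38.9 in the Brca1-WT libraries, below members in each library (log2 fold change 2.77 ± 0.31, adjusted p = 7.0e-05). Irf8, which cDC1 and plasmacytoid cells depend on, was higher by 1.98 ± 0.34 (adjusted p = 0.0022), and this call was lost without Brca1-KO replicate 1 (adjusted p = 0.067). Runx3, which acts in dendritic and T cells, was higher by 5.70 ± 0.54 with 41 UMIs. Bach2, a repressor known from lymphocytes, was higher by 1.07 ± 0.26, a call lost in 3 of 12 alternatives. The factors of resident macrophages were lower. Maf fell by 2.96 and Nr1h3, the liver X receptor alpha gene that Kupffer cells need, by 2.44 on the log2 scale relative to Kupffer nuclei. Spic, a factor of iron-recycling macrophages, and Tfec, a relative of Mitf, had 2 and 5 UMIs in members and were also called lower, as was Rxra, the partner of nuclear receptors, by 1.59. The Spic call was lost in 4 of 10 alternatives, DESeq2 among them, and the Tfec call without Brca1-KO replicate 1, where the list held 2 genes higher and 4 lower. Zeb2, which monocytes, macrophages and cDC2 share, did not pass (log2 fold change -0.57, adjusted p = 0.51).

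Of 7 tested cDC1 genes, 5 were higher and 0 lower (list median 1.98). The count was 2 of 6 tested without Brca1-KO replicate 1 and 3 of 6 without either Brca1-WT replicate. Rab7b, a regulator of lysosomal traffic, was higher by 1.86 ± 0.42, a call lost in 5 of 11 alternatives. Naaa, an acid amidase abundant in cDC1, was higher by 3.75 ± 0.46 and Ppt1, a lysosomal thioesterase, by 2.39 ± 0.31. Sept3, a septin gene, had 17 UMIs in members and 0 in Kupffer nuclei, at least 111-fold higher when 3 counts over all Kupffer nuclei are taken as the floor. Cadm1, an adhesion molecule of cDC1, had 302 UMIs in members and did not pass (log2 fold change -0.27, adjusted p = 0.82), and Batf3, the factor cDC1 need, did not either (0.53, adjusted p = 0.68). Of 4 tested cDC2 genes, 2 were higher, namely Napsa, an aspartic protease (6.19 ± 0.52), and Itgam, the CD11b integrin (2.32 ± 0.42). Of 6 tested genes of mature dendritic cells, Traf1, a signalling adaptor, was higher (4.65 ± 0.70).

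Of 5 tested plasmacytoid genes, 3 were higher in members and 0 lower (list median 1.41), and without Brca1-WT replicate 2 the count was 5 of 7. Runx2, which plasmacytoid cells use to leave the bone marrow, stood at 1105 and 466 CPM in members of the Brca1-KO libraries and 547 and 251 in members of the Brca1-WT libraries. In Kupffer nuclei Runx2 stood at 4.15 and 13.8 in the Brca1-KO libraries and 25.0 and 10.8 in the Brca1-WT libraries, far below members (log2 fold change 5.25 ± 0.48, adjusted p = 1.5e-05). The 10 plasmacytoid-list nuclei, which Runx2 and Tcf4 helped to choose, held 176 of the 215 Runx2 UMIs. Tcf4, the factor that directs plasmacytoid fate, was higher by 1.41 ± 0.32 (adjusted p = 0.014), a call lost without Brca1-KO replicate 1 (adjusted p = 0.23), and 220 of its 344 UMIs lay in those nuclei. Siglech was not tested for this comparison. It had 144 and 182 CPM in members of the Brca1-KO libraries and 168 and 0 in members of the Brca1-WT libraries, where replicate 2 held 0. Ccr9, a homing receptor of plasmacytoid cells and their precursors, was higher by 5.27 ± 0.59, with 6 of its 31 UMIs in those 10 nuclei.

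Migration receptors included further calls, at 4 of 7 tested genes higher and 0 lower (list median 2.31). Besides Ccr9, these were Itga4 and Itgb7, which together form the gut-homing integrin, and Gpr183, an oxysterol receptor that positions dendritic cells. Itga4 stood at 529 and 371 CPM in members of the Brca1-KO libraries and 729 and 463 in members of the Brca1-WT libraries. In Kupffer nuclei Itga4 stood between 79.1 and 121 CPM, with no overlap (log2 fold change 2.31 ± 0.28, adjusted p = 1.6e-04). Itgb7 was higher by 3.42 ± 0.45 and Gpr183 by 4.32 ± 0.79. Itgal, the integrin LFA-1 chain, did not pass (log2 fold change -1.03, adjusted p = 0.10).

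Monocyte lists showed little against Kupffer nuclei. Of 5 tested classical monocyte genes, 1 was higher (list median -0.53), namely Plac8 (2.48 ± 0.51, adjusted p = 0.0079), and 27 of its 29 UMIs lay on the dendritic side. The Plac8 call was lost without Brca1-KO replicate 1 (adjusted p = 0.087). Fn1 did not pass (log2 fold change -0.53, adjusted p = 0.59). Of 6 tested genes of patrolling monocytes, Cd36, a fatty acid and lipoprotein receptor, was higher (1.78 ± 0.37) and Adgre4, an adhesion receptor of macrophages and patrolling monocytes, was lower (-1.94 ± 0.31). The Cd36 call was lost without Brca1-KO replicate 1 (adjusted p = 0.171). Csf1r, the receptor for the growth factor of monocytes and macrophages, was lower by 1.75 in log2 (adjusted p = 0.0089). Csf1r stood at 72.1 and 58.2 CPM in members of the Brca1-KO libraries and 140.3 and 138 in members of the Brca1-WT libraries, against 326 and 349 in Kupffer nuclei of the Brca1-KO libraries and 169 and 479.5 in those of the Brca1-WT libraries. Each member library was below its own Kupffer nuclei. The pan-myeloid list held 2 genes higher, Ptprc (1.39 ± 0.35) and Coro1a, an actin regulator of white cells (2.14 ± 0.43), and 3 lower, Csf1r and Maf among them, of 20 tested. The Ptprc and Csf1r calls were lost without Brca1-KO replicate 1 or Brca1-WT replicate 2, and the Coro1a call without Brca1-WT replicate 2, which left 0 of this list higher.

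Kupffer identity genes were lower in members, and since Cd5l, Clec4f and Timd4 chose both sets, their count is a description. Of 22 tested genes outside the gates, 20 were lower and 0 higher (list median -2.76). Without Brca1-KO replicate 1 the count was 12 of 23 tested, and with stricter Kupffer nuclei it was 13 of 15. Vsig4, the complement receptor of Kupffer cells, stood at 36.04 and 14.6 CPM in members of the Brca1-KO libraries and 28.1 and 12.5 in members of the Brca1-WT libraries. Kupffer nuclei held 556 and 450.3 Vsig4 CPM in the Brca1-KO libraries and 301 and 626 in the Brca1-WT libraries (log2 fold change -4.48 ± 0.41). Cd163, the haemoglobin scavenger receptor, had 0 UMIs in members and was at least 65.2-fold lower with 3 counts over all members as the floor. On the same floor Kcna2 was at least 8.29-fold lower, Fcna at least 5.02-fold lower and Lpl, lipoprotein lipase, at least 6.65-fold lower. Marco, Vcam1 and C1qa, known from Kupffer surfaces and complement, had 2, 5 and 3 UMIs in members. Of 5 tested genes of scar and lipid-associated macrophages, 2 were lower, namely Lpl and Colec12.

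Response and other-lineage lists held few calls. Of 6 tested inflammatory mediators, 0 were called. Of 10 tested interferon-response genes, Ddx60 was lower (-2.40 ± 0.42). Among 4 tested B-cell genes, Ighm, the heavy chain of IgM, was higher (2.85 ± 0.58), with 10 of its 19 UMIs in plasmacytoid-list nuclei, and the call was lost without Brca1-KO replicate 1 or Brca1-WT replicate 2. Endothelial genes gave 2 lower among 8 tested (Ptprb and Cdh5) and stellate genes 1 lower among 3 tested (Hgf). The rule asked for 0 UMIs of Stab2 and Reln in members but not in Kupffer nuclei, so these counts are a description. With the stricter Kupffer nuclei, 1 of 2 tested endothelial genes was lower. The Ptprb call was lost in 8 of 11 alternatives, among them DESeq2 and each library left out, and the Hgf call in 4 of 11. The neutrophil list had 0 calls among 1 tested gene, and 0 genes of the proliferation, T and NK cell, mast cell and cholangiocyte lists passed the filter on low counts. Marker lists of other cells differed between members and Kupffer nuclei by library. The endothelial list gave 6.85, 1.31, 3.37 and 4.01 UMIs per 10000 in members and 9.64, 7.08, 26.3 and 13.5 in Kupffer nuclei, and its part in the endothelial calls was not tested. Among members the T and NK cell list gave 0.218 to 0.501 UMIs per 10000 over libraries, the neutrophil list 0 to 0.701, and the mast cell list 0 in every library.

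**Figure D5:**
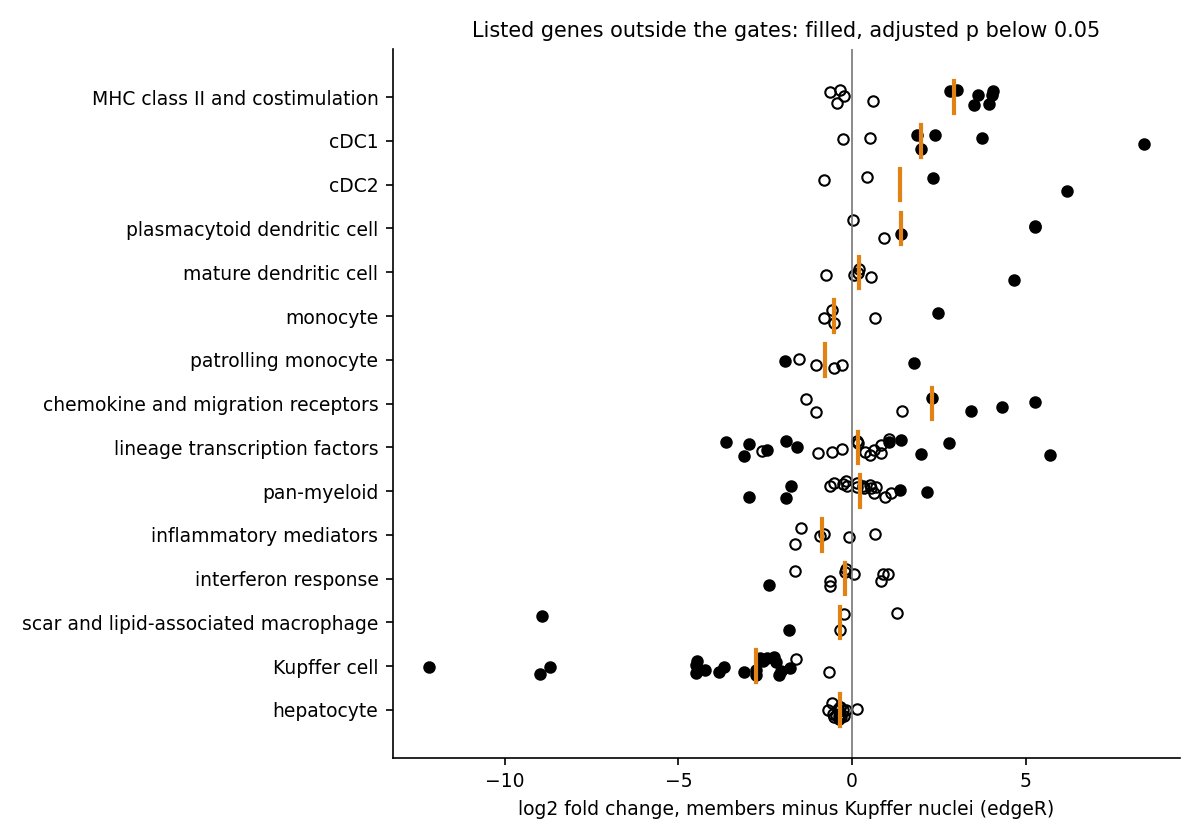
Log2 fold change of members minus Kupffer nuclei for each tested gene of 15 lists, filled where the adjusted p is below 0.05, with the list median as an orange bar. The MHC class II median is 2.92 and the Kupffer cell median is -2.76, and the outermost points are genes with 0 UMIs in 1 of the sets, whose fitted size is no bound.

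Beyond the lists, the genes with the strongest evidence of higher levels in members included several of dendritic biology. Bcl11a, a factor required for plasmacytoid cells and lymphocytes, stood at 1201 and 364 CPM in members of the Brca1-KO libraries and 1024 and 276 in members of the Brca1-WT libraries. In Kupffer nuclei Bcl11a stood between 1.44 and 9.24, and the log2 fold change was 7.03 ± 0.34 (adjusted p = 1.2e-07). Its 245 UMIs lay in 44 members, and 110 of them lay in the plasmacytoid-list nuclei. Gpr141, an orphan receptor of myeloid cells, stood at 973 and 175 CPM in members of the Brca1-KO libraries and 631 and 288 in members of the Brca1-WT libraries, against 1.63 to 4.62 in Kupffer nuclei (6.96 ± 0.36). Both genes were uneven among the replicates of a genotype while staying far above Kupffer nuclei. Btla, an inhibitory receptor of lymphocytes and dendritic cells, was higher by 5.19 ± 0.37, and Myo5a, a cargo motor, by 5.38 ± 0.33. Mctp1, a calcium-binding membrane protein, was higher by 5.46 ± 0.37, and Cacna1e, a calcium channel subunit, by 5.15 ± 0.35 with its 98 UMIs in 19 members. St8sia4 and St8sia1, which build sialic acid chains, were higher by 4.57 ± 0.33 and 6.36 ± 0.53. The remaining 4 by this rule were Slc9a7, a sodium-proton exchanger (5.08), Ctnnd2, a catenin (6.65), Srgap3 (4.97), and Trerf1, a transcriptional regulator (4.05).

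The genes with the strongest evidence of lower levels included Vsig4 and Cd163 again. Anapc15, a subunit of the anaphase-promoting complex, stood at 24.0 and 29.1 CPM in members of the Brca1-KO libraries and 14.0 and 12.5 in members of the Brca1-WT libraries. Kupffer nuclei held 351 and 418 Anapc15 CPM in the Brca1-KO libraries and 222 and 409.7 in the Brca1-WT libraries (log2 fold change -4.12 ± 0.39, adjusted p = 1.6e-05). Members lay below Kupffer nuclei in each library. Btbd11 (-6.48), Kcnj16, a potassium channel (-6.11), Ksr2, a kinase scaffold (-5.58), and Dysf, which repairs membranes (-5.05), had 2 or 3 UMIs each in members. Ptprm, a receptor phosphatase (-4.87), had 26 UMIs in 8 members, 17 of them on the monocyte side. Sema6d, a semaphorin (-4.39), Ptgs1, the cyclooxygenase-1 gene (-3.89), and Dmpk, a kinase (-3.49), were also lower. Ccdc148 had 0 UMIs in members, at least 31.5-fold lower.

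Within the members, the monocyte and dendritic sides were compared as pooled sums with exact Poisson intervals and without a test, since each library held fewer than 10 monocyte-side nuclei. The sides were set by Ccr2, Cx3cr1, Flt3, Clec9a, Cd209a and Wdfy4, so those genes are no finding. Hepatocyte-rich nuclei made up 5 of 20 monocyte-side and 8 of 82 dendritic-side nuclei, and the values here leave them out. F13a1, the coagulation factor XIII subunit made by monocytes, stood at 432 CPM (95% interval 242 to 712) on the monocyte side and 34.8 (12.8 to 75.7) on the dendritic side. Gda, guanine deaminase, stood at 575 (351 to 889) on the monocyte side and 11.6 (1.40 to 41.9) on the dendritic side. Csf1r stood at 518 (307 to 818) on the monocyte side and 87.0 (48.7 to 143) on the dendritic side. The pooled intervals of F13a1, Gda and Csf1r did not meet, on 15, 20 and 18 UMIs on the monocyte side, but the libraries differed. F13a1 had 0 and 8 monocyte-side UMIs in the Brca1-KO libraries and 7 and 0 in the Brca1-WT libraries, and 1 nucleus gave 7 of the 15. Gda had 1 and 10 monocyte-side UMIs in the Brca1-KO libraries and 8 and 1 in the Brca1-WT libraries. Csf1r had 0 and 5 monocyte-side UMIs in the Brca1-KO libraries and 4 and 9 in the Brca1-WT libraries. In Brca1-KO replicate 1 the dendritic side held 3 F13a1 and 6 Csf1r UMIs, so the pooled direction did not hold there. That library's 3 monocyte-side nuclei included 1 of the plasmacytoid-list nuclei and 1 of the endothelial-list nuclei. For F13a1 the pooled direction did not hold in Brca1-WT replicate 2 either, with 0 UMIs on the monocyte side and 1 on the dendritic side. With hepatocyte-rich nuclei included, the Kupffer cell list, to which Csf1r does not belong, gave 20.6, 11.1, 25.5 and 26.1 UMIs per 10000 on the monocyte side and 7.17, 8.62, 11.1 and 10.1 on the dendritic side. Its part in the Csf1r values was not tested.

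Genes of antigen presentation leaned the other way, less evenly. Ciita stood at 403 CPM (220.2 to 676) on the monocyte side and 905 (768 to 1058) on the dendritic side. H2-Aa stood at 173 (63.3 to 376) on the monocyte side and 504 (404 to 622) on the dendritic side. Cd74 stood at 575 (351 to 889) on the monocyte side and 783 (656 to 927) on the dendritic side, with intervals that overlapped. The libraries split on Cd74. The monocyte side was higher in Brca1-KO replicate 2 (792 against 675) and Brca1-WT replicate 2 (1053 against 710). It was lower in Brca1-KO replicate 1 (0 against 817) and Brca1-WT replicate 1 (545 against 895). Zbtb46 stood at 201 (81.0 to 415) on the monocyte side and 545 (440.5 to 667) on the dendritic side. Zeb2, which did not separate members from Kupffer nuclei, stood at 4200.5 (3547 to 4940) on the monocyte side and 1850 (1652 to 2064) on the dendritic side, though in Brca1-KO replicate 1 it was lower on the monocyte side (1314 against 1878). Poisson intervals cover counting error only and not the spread between livers. The Wdfy4 level graded the set as well, as a description. The 20 members with at least 10 Wdfy4 UMIs numbered 7 and 3 in the Brca1-KO libraries and 8 and 2 in the Brca1-WT libraries, and 12 of them reached 5 UMIs of the cDC1 list, against 29 of the 86 others. Their median depth was 3806 UMIs, against 1954 in the others.

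Between genotypes, 0 of 2220 tested genes were called in members by edgeR's quasi-likelihood test with Benjamini-Hochberg adjustment (0% called). At an unadjusted p under 0.05 there were 56 genes, the smallest adjusted p was 0.999, and DESeq2 called 0 as well. Both Brca1-KO libraries lay above both Brca1-WT libraries in 307 genes (13.8%) and below both in 364 genes (16.4%). Without Brca1-KO replicate 1 there were 42 calls, without Brca1-KO replicate 2 or Brca1-WT replicate 1 there were 3 each, and without Brca1-WT replicate 2 there were 0.

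Genes with the smallest unadjusted p in members are given as values, and none of the 10 passed the adjustment (adjusted p = 0.999 each, edgeR's quasi-likelihood test). Grm8, a glutamate receptor gene, had 26 and 88 UMIs in Brca1-KO members and 8 and 3 in Brca1-WT members (log2 fold change 2.75 ± 0.66, unadjusted p = 0.0037). Of the 125 Grm8 UMIs, 87 lay in plasmacytoid-list nuclei, of which the Brca1-KO libraries held 6 and the Brca1-WT libraries 4. Gbe1, the glycogen branching enzyme, had 32 and 111 UMIs in Brca1-KO members and 10 and 17 in Brca1-WT members (1.81 ± 0.57), with 131 of its UMIs in hepatocyte-rich nuclei. Sntb1, a syntrophin, had 37 and 161 UMIs in Brca1-KO members and 13 and 20 in Brca1-WT members (1.96 ± 0.62), with 191 in hepatocyte-rich nuclei. Most UMIs of both genes thus lay in 13 of the 106 nuclei, and their part in the difference was not tested. Ssbp3 (2.13 ± 0.64) and Cflar, an inhibitor of death-receptor signalling (1.34 ± 0.43), completed the higher genes.

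Among the lower genes, Cyp4a14, a fatty acid omega-hydroxylase of hepatocytes whose counts are uncertain because of near-identical relatives, had 12 and 13 UMIs in Brca1-KO members and 41 and 81 in Brca1-WT members. The log2 fold change of Cyp4a14 was -2.72 ± 0.53 (unadjusted p = 0.0012, adjusted p = 0.999, edgeR), and 109 of its UMIs lay in hepatocyte-rich nuclei. Without those nuclei Cyp4a14 had 4 and 3 UMIs in Brca1-KO members and 14 and 17 in Brca1-WT members, still without overlap. Arsb, a lysosomal sulfatase, had 11 and 16 UMIs in Brca1-KO members and 27 and 33 in Brca1-WT members (-1.63 ± 0.41), with 6 of them in hepatocyte-rich nuclei. Ebf1, a B-cell factor, had 3 and 0 UMIs in Brca1-KO members and 30 and 10 in Brca1-WT members. Of these 43 UMIs, 40 lay in the 8 nuclei with the B and plasma cell list, which Ebf1 itself helped to choose. Itga9, an integrin chain (-2.0001 ± 0.54), had 9 and 6 UMIs in Brca1-KO members and 20 and 25 in Brca1-WT members. Adam23, a membrane protein of the ADAM family (-1.81 ± 0.53), had 11 and 10 UMIs in Brca1-KO members and 35 and 19 in Brca1-WT members. Bhmt, betaine-homocysteine methyltransferase, an abundant hepatocyte enzyme, had 18 and 13 UMIs in Brca1-KO members and 20 and 78 in Brca1-WT members (-2.05 ± 0.72, adjusted p = 0.999), with 96 of 129 in hepatocyte-rich nuclei. Without those nuclei Bhmt had 8 and 4 UMIs in Brca1-KO members and 16 and 5 in Brca1-WT members, which is 139.5 and 76.6 CPM in Brca1-KO members against 254 and 116 in Brca1-WT members, and the groups overlapped.

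The MHC class II genes gave no called difference between genotypes. Of 7 genes of the list tested, 3 were below both Brca1-WT libraries in both Brca1-KO libraries, as were 364 of all 2220 genes (16.4%). The count was not tested against that share. The list median was -0.68 on the log2 scale against 0.01 for all 2220 genes. H2-Eb1 changed by -0.94 ± 0.42 (unadjusted p = 0.058) and Cd74 by -0.68 ± 0.46 (unadjusted p = 0.18), both with adjusted p = 0.999 in edgeR's test. Without hepatocyte-rich nuclei, H2-Eb1 stood at 314 and 402 CPM in Brca1-KO members and 493 and 604 in Brca1-WT members. Cd74 then stood at 645 and 689 CPM in Brca1-KO members and 794 and 812 in Brca1-WT members. For both genes the Brca1-KO libraries lay below the Brca1-WT libraries with and without the hepatocyte-rich nuclei. H2-Aa, the other gene below with all members, overlapped without them, at 401 and 479 CPM in Brca1-KO members and 461 and 371 in Brca1-WT members. Ciita then ran the other way, at 802 and 881 CPM in Brca1-KO members and 715 and 766 in Brca1-WT members. For the plasmacytoid list, members held 28.6 and 18.4 UMIs per 10000 in the Brca1-KO libraries and 22.3 and 7.89 in the Brca1-WT libraries, which overlapped. Without hepatocyte-rich nuclei the list gave 39.9 and 41.9 in Brca1-KO members and 24.2 and 12.3 in Brca1-WT members, which did not overlap. Single nuclei carried much of this. In the Brca1-KO libraries 1 nucleus each gave 103 of 229 and 130 of 219 of these list UMIs. In the Brca1-WT libraries 1 nucleus each gave 52 of 152 and 17 of 53. Whether the groups stay apart without those nuclei was not tested. Runx2 (0.998 ± 0.59) and Siglech (1.07 ± 1.03) had an adjusted p of 0.999.

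The difference of members minus Kupffer nuclei between genotypes was tested as an interaction, with 0 of 7500 genes called by edgeR's quasi-likelihood test, 306 at an unadjusted p under 0.05, and 0 by DESeq2. Without Brca1-WT replicate 2 there were 13 calls and without Brca1-WT replicate 1 there were 4. Stox2, a storkhead-box gene, had the smallest p among the positive ones. It stood at 84.1 and 21.8 CPM in members of the Brca1-KO libraries and 14.0 and 0 in those of the Brca1-WT libraries, with 11 UMIs in all. In Kupffer nuclei Stox2 stood at 23.9 and 13.004 in the Brca1-KO libraries and 233 and 45.4 in the Brca1-WT libraries (difference 5.77 ± 1.18 in log2, adjusted p = 0.996). Hk2, hexokinase 2, ran the opposite way, at 12.0 and 14.6 CPM in members of the Brca1-KO libraries and 112 and 175 in those of the Brca1-WT libraries. In Kupffer nuclei Hk2 stood between 48.1 and 84.1 (difference -3.69 ± 0.85, adjusted p = 0.996). Amz1 (-2.78 ± 0.66), Arhgap22 (-2.29 ± 0.55), and Cd84, an adhesion receptor of white cells (-3.06 ± 0.77), were next, besides Ebf1 (-4.39 ± 0.97). Grm8 (2.44 ± 0.62), Hal, histidine ammonia-lyase of hepatocytes (3.13 ± 0.84), and Cyp2f2, a periportal cytochrome (3.40 ± 0.93), were positive. Plxna2, a semaphorin receptor, had 4 and 19 UMIs in members of the Brca1-KO libraries and 0 and 0 in those of the Brca1-WT libraries, with 21 of the 23 in hepatocyte-rich nuclei.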

How the data were processed

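The deposited values were raw counts of UMIs for each gene and barcode. Per the file headers, the authors made these unnormalized counts in Cell Ranger 6.0.0. Per the labels' protocols a 10x Genomics 3′ v1 kit was used. The submitters' processing notes name GRCh38, a human build, yet all 32285 gene identifiers are mouse identifiers. The sources used here give neither the mouse build nor whether introns or strand entered the counting, and the labels name the molecule as genomic DNA. Promoter windows come from RefSeq on GRCm38.p6.

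Members, gene lists and thresholds were chosen with earlier results of these data known. Counts were summed per library and set, filtered with filterByExpr, scaled by TMM and tested with edgeR 4.0.16 (limma 3.58.1, R 4.3.3). DESeq2 1.42.0 was an alternative. Named genes were the 12 higher and 12 lower of smallest p with 1 sign in 4 of 4 libraries. Between genotypes they were up to 5 each way of smallest p among genes whose groups did not overlap. For the interaction they were up to 5 each way, and for each list up to 5. Genes outside this rule (Cadm1, Batf3, Zeb2, F13a1, Csf1r between the sides and the like) were added from the lists after values were seen. CPM refers to all UMIs summed over the nuclei named. Cyp4a14 and Cd209a have near-identical relatives, so their counts are uncertain. Doublets were called with Scrublet in scanpy 1.11.5 (expected rate 0.06) and removed in 1 alternative only. The other tools were Python 3.11.15, numpy 2.4.6, scipy 1.17.1, pandas 2.3.3 and matplotlib 3.10.9. The tests were checked on simulated counts with 100 genes changed 4-fold and 100 changed 8-fold. Between genotypes 50 and 67 of these passed the filter, and 58% and 92.5% of those were called. For members minus Kupffer nuclei 74.5% and 93.8% of the tested ones were called. For the interaction only 12% and 36% were called, so its 0 calls do not show that such changes are absent. The simulated counts used 1 fixed dispersion for every gene, set beforehand and not estimated from these libraries. The changed genes were drawn only from those above a minimum expected count. These shares therefore hold for that setting, and the 0 calls between genotypes do not show that changes of these sizes are absent either. Intervals (95%) and floors (3 counts) cover counting error only. Alternatives changed the gate threshold, gene minimum (300), depth (1000 UMIs per nucleus), Kupffer rule, filter, tool and libraries. 1 list gene was not in the files. The dendritic-minus-monocyte test was not run because libraries held fewer than 10 monocyte-side nuclei. Some genes of the lists are counted in them but not reported here by name.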

Additional observations from a re-analysis of the deposited data

How the results depend on the processing

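The difference in monocyte-side share of members (Brca1-KO minus Brca1-WT, -2.74 percentage points) changed sign to 3.24 with a gate of 2 UMIs and to 1.83 with a gate of 4 UMIs, and leaving out libraries gave a range of -6.93 to 1.46 (1.46 without Brca1-KO replicate 1). Genotype calls in members, 0 as reported, became 8 with no filter on low counts and 10 with the replicate block, and ranged from 0 to 42 over leaving out libraries. The replicate numbers gave a correlation of 0.33 over 2220 genes for 2 pairs, too few to treat them as pairing. Calls of members minus Kupffer nuclei, 487 as reported, became 900 with no filter, 823 with a gate of 4 UMIs, 933 without the top quartile by hepatocyte-list share and 323 with stricter Kupffer nuclei, and ranged from 209 (without Brca1-KO replicate 1) to 548 over libraries left out. DESeq2 called 465, of which 447 were shared. Interaction calls, 0 as reported, became 4 with no filter and 1 with a gate of 4 UMIs, and ranged from 0 to 13 over libraries left out. The causes of these moves were not tested. Of 1048 gene-level values over 91 genes of the Kupffer comparison, 55 lost their call, 13 gained one and 0 changed sign. A gene that was not tested in an alternative gave no value there, and a missing adjusted p was counted as unchanged. Calls lost in these ways are not among the 55. Sept3, for example, had values in only 5 alternatives. Between genotypes 123 of 141 values over 15 genes stayed without a call, and for the interaction 84 of 88 over 10 genes. The others gained a call, some values of Cyp4a14, Grm8 and Ebf1 between genotypes among them. The members of a library held 71292 to 137364 UMIs in all, which limits the genes that could be tested.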
